A study of Mus musculus with 6 samples.

Results

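Ifnar2, Stat2, Eif2ak2 and Ifi35 are genes of the interferon pathway that stand on the authors' deposited list of probe sets higher in muscle spindle (MS) than in Golgi tendon organ (GTO) sensory neurons. They were chosen by their symbols on that list, where each has 1 probe set, so they make up 4 of the 570 genes that the list names with a single symbol and 4 of its 626 probe sets. The values that put them there are the same MS against GTO values described here. Their differences between the groups are therefore a description, with no test. Other probe sets of the 4 genes, outside the list, could not be named from the sources used here and were not analysed.

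Both groups were proprioceptive sensory neurons, the neurons that report muscle length (MS) or muscle tension (GTO) to the spinal cord. They were taken from dorsal root ganglia of the same kind of mouse at postnatal day 7 to 10. The animals were of both sexes on a mixed C57bl/129sv background and carried Egr3::WGA-cherry, PV:Cre and Thy1-lsl-YFP, so both groups carried every transgene. MS samples were enriched by sorting for Cherry+YFP+ cells and GTO samples for Cherry-YFP+ cells, which makes MS identity rest on the Egr3-driven label and proprioceptor identity on Cre driven by PV (parvalbumin). Each group had 3 samples on 1 array each, pooled from several sorts to about 1250 neurons per MS sample and about 725 per GTO sample. Samples are biological replicates per their titles, and the number of animals behind each pool was not given in the sources used here.

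Type I interferons signal through a receptor of a pair of chains, Ifnar1 and Ifnar2. The receptor's kinases Jak1 and Tyk2 then phosphorylate transcription factors of the STAT family, among them Stat2, which joins Irf9 in a complex that binds the interferon-stimulated response element (ISRE) of their target genes. Targets include Eif2ak2, the kinase PKR, which is activated by viral RNA and blocks translation by phosphorylating eIF2 alpha, and Ifi35, an interferon-induced leucine zipper protein that binds Nmi. Interferon gamma acts through another element, the gamma-activated site (GAS). Sensory neurons carry interferon receptors and can respond to interferon directly.

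The promoters are shown because the pathway has known response elements. The choice of the genes by symbol used no sequence. Other genes of the pathway lists held the motifs more often than promoters at large, by the shares given below. A match is therefore not independent of the choice by pathway. Each window runs from 250 bases before to 50 bases after the gene start annotated by RefSeq, and all 4 genes matched an entry. Both strands were searched for the ISRE core GAAANNGAAA and for the GAS motif TTCNNNGAA, and capitals mark the matches. Each sequence reads 5′ to 3′ along its gene.
Ifnar2 promoter (GRCm38.p6, chr16:91372533-91372832, plus strand): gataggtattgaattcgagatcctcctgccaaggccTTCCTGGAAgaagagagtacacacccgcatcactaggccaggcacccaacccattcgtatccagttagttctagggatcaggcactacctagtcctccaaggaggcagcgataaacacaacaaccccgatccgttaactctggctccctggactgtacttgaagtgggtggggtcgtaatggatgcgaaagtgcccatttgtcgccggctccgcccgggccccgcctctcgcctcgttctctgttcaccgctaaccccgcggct
Stat2 promoter (GRCm38.p6, chr10:128270248-128270547, plus strand): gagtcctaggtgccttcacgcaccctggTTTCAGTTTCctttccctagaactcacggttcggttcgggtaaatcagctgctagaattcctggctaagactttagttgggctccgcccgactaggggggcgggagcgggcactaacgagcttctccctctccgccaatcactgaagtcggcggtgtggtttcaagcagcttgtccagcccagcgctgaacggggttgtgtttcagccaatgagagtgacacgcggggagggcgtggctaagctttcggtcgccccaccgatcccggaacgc
Eif2ak2 promoter (GRCm38.p6, chr17:78882523-78882822, minus strand): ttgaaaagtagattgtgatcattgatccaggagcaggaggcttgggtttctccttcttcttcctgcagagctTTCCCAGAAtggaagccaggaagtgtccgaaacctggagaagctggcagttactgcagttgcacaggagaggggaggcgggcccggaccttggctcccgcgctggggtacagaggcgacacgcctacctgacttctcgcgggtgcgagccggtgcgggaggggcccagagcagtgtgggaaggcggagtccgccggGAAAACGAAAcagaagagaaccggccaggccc
Ifi35 promoter (GRCm38.p6, chr11:101448162-101448461, plus strand): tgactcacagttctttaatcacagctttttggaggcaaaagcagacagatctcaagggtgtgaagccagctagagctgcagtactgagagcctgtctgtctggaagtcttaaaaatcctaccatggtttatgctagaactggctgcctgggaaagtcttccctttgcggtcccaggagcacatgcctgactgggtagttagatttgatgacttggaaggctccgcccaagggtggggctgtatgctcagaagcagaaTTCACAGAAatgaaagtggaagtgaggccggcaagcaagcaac
The ISRE core was found in the windows of Stat2 and Eif2ak2. In Stat2 the match was TTTCAGTTTC on the opposite strand, at -222 to -213 from the gene start. In Eif2ak2 it was GAAAACGAAA on the gene's strand, at 19 to 28 after the start. The GAS motif was found in Ifnar2 (TTCCTGGAA, -214 to -206), in Eif2ak2 (TTCCCAGAA, -178 to -170) and in Ifi35 (TTCACAGAA, 8 to 16). No match overlapped another.

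Of all 32851 promoter windows in the RefSeq table, 1131 (3.44%) held the ISRE core and 2726 (8.3%) the GAS motif. Among 606 windows of genes on the deposited list the shares were 2.81% and 5.45%. Among 39 windows of a list of interferon-stimulated genes, which includes Ifi35 and Eif2ak2, 18 (46.2%) held the ISRE core and 11 (28.2%) the GAS motif. Of 103 windows of interferon and eIF2 pathway genes other than the 4, 28 (27.2%) held the ISRE core and 19 (18.4%) the GAS motif. The windows of Eif2ak2, Stat2 and Ifnar2 had a GC content of 60.7%, 59.3% and 57.0%, and that of Ifi35 had 49.7%, against a median of 52.7% over all windows. A match describes the letters in these windows only.

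**Figure D1:**
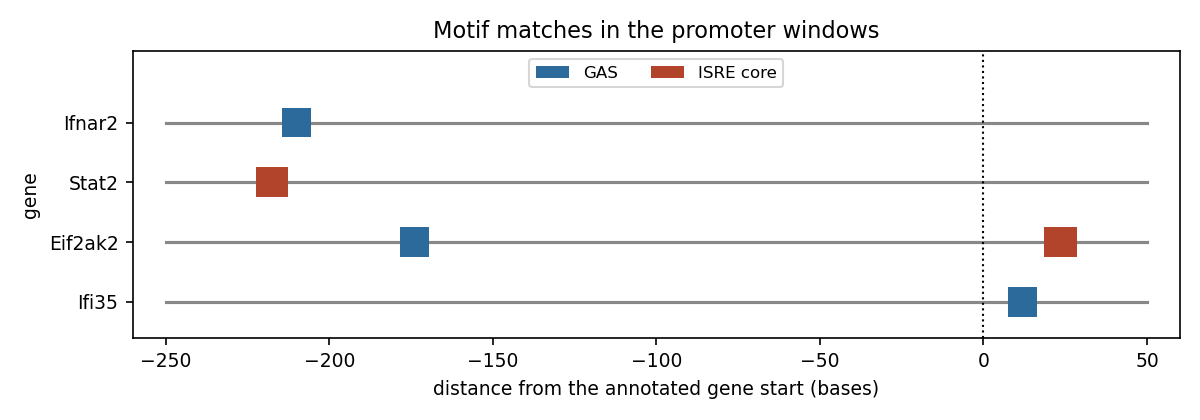
Positions of motif matches in the promoter windows of the 4 genes, with the distance from the annotated gene start in bases on the x axis and 1 line per gene. Red blocks are ISRE core matches (Stat2 and Eif2ak2) and blue blocks GAS matches (Ifnar2, Eif2ak2 and Ifi35), and the dotted line marks the start.

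Values are given in the order of replicates 1, 2 and 3 within each group. The array values are on a log2 scale after the authors' normalization, so a difference of 1 is a 2-fold difference. A value of 4 was used as the level below which a probe set counts as low. The 27 bacterial spike-in control probe sets, which match no mouse gene, read between 1.86 and 2.89. This range was taken as the background, on the unchecked assumption that their transcripts were not added to the samples.

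Ifnar2, the receptor chain that binds interferon with high affinity, was the only member with a value above the low level on a GTO array. Its probe set 1451462_a_at read 6.63, 7.32 and 7.61 in MS, and 5.09, 3.61 and 3.49 in GTO. The groups did not overlap, and GTO array 1 stood 1.54 above the mean of the other GTO arrays. The means were 7.19 ± 0.50 in MS and 4.06 ± 0.89 in GTO (log2 values, SD, n = 3), a difference of 3.12. The list assigns 2 RefSeq transcripts to this probe set, and mouse Ifnar2 is known to give a membrane-bound and a soluble form, which these values do not separate.

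Stat2, the transcription factor of the pathway that gives the ISRE-binding complex its activation domain, was low on every GTO array. Probe set 1421911_at read 5.65, 4.70 and 5.38 in MS, and 2.59, 2.70 and 2.79 in GTO. All GTO values lay within the range of the spike-in controls, and all MS values lay above the low level. The means were 5.24 ± 0.49 in MS and 2.69 ± 0.10 in GTO (log2 values, SD, n = 3), a difference of 2.55. Since every GTO array was low, the measured difference is given also as a bound, at least 2.36-fold higher in MS than the level of log2 4.

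Eif2ak2 had the widest spread among the MS arrays. Probe set 1422006_at read 7.71, 6.08 and 5.36 in MS, and 3.06, 3.14 and 3.42 in GTO. The MS values covered a range of 2.35, while the GTO values covered 0.36 and stood just above the spike-in controls. The means were 6.38 ± 1.20 in MS and 3.21 ± 0.19 in GTO (log2 values, SD, n = 3), a difference of 3.18 and a bound of at least 5.22-fold. Without MS array 1 the difference was 2.51.

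Ifi35 had the largest difference of the 4. Probe set 1445897_s_at read 7.47, 7.22 and 8.16 in MS, and 2.42, 2.47 and 2.59 in GTO. The lowest MS value stood 4.63 above the highest GTO value, and the GTO values lay within the range of the spike-in controls. The means were 7.61 ± 0.49 in MS and 2.49 ± 0.09 in GTO (log2 values, SD, n = 3), a difference of 5.12 and a bound of at least 12.3-fold. The suffix of this probe set marks probes that can match more than 1 transcript, so its signal may not come from Ifi35 alone.

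**Figure D2:**
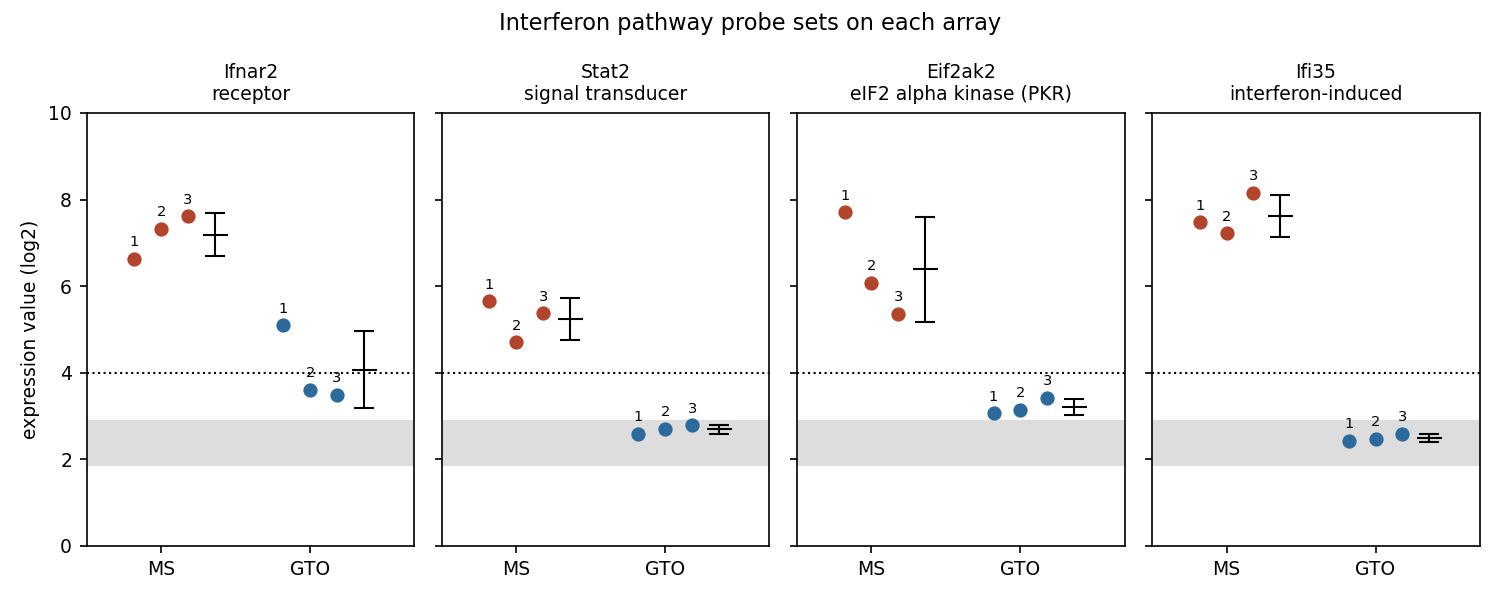
Expression value (log2) of the 4 probe sets on each array, with MS left of GTO in each panel. Points are arrays numbered by replicate, horizontal marks with bars are the mean and SD of 3 arrays, the dotted line is log2 4, and the grey band is the range of the spike-in controls (1.86 to 2.89). The MS points lie above every GTO point in each panel, and only GTO array 1 of Ifnar2 lies above the dotted line in GTO.

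These differences can be set against the whole table. The rule that chose the list, at least 5-fold higher in MS with a p-value below 0.08, was met by 626 of 45037 probe sets (1.39%) and in the opposite direction by 63 (0.14%). All 4 members meet it because they were taken from it. Values on every MS array above every GTO array were seen for 4 of 4 members, against 1915 of 45037 probe sets (4.25%) and 592 of the 626 listed (94.6%), a share that the choice itself fixes. All 3 GTO arrays were under log2 4 for 3 of 4 members, against 207 of the 626 listed (33.1%). Over all probe sets but controls, 64.0%, 66.9% and 66.7% were under log2 4 on GTO arrays 1, 2 and 3. On the MS arrays these shares were 62.4%, 62.2% and 62.9%. A low value is thus common in the whole table, and the share low on all GTO arrays together was not computed. In a fit across 16256 probe sets that reached log2 4 on at least 3 arrays, among them all 4 members, limma called 3 probe sets higher in MS at an adjusted p under 0.05 (0.0185%) and none of the 4 members. A looser criterion in limma, an unadjusted p under 0.05 with a 2-fold or larger difference, took 1053 of them (6.48%) as higher in MS and 242 as higher in GTO, or 700 and 638 after quantile normalization. It took 4 of 4 members. Stat2, Eif2ak2 and Ifi35 entered the fit through their MS arrays alone, since all their GTO values were under log2 4. Nothing is read from these member counts, since the same contrast chose the genes.

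Within the authors' deposited table, Ifi35 had a fold of 34.8 with a p-value of 5.64e-05, ranking 25 of 626 by fold and 9 by p-value. Eif2ak2 had a fold of 9.04 in the authors' deposited table (p-value 0.0107, rank 327 by fold), and Ifnar2 had 8.71 (p-value 0.00613, rank 345). Stat2 had the smallest fold of the 4 in the authors' deposited table, 5.86, at rank 550, but its p-value of 0.000895 ranked 45. The median fold of the whole list in the authors' deposited table was 9.34. These folds and ranks rest in part on GTO values under log2 4. Such values stood on every GTO array for Ifi35, Eif2ak2 and Stat2, and on GTO arrays 2 and 3 for Ifnar2. With such values set to 4 the differences were 3.61 for Ifi35, 2.82 for Ifnar2, 2.38 for Eif2ak2 and 1.24 for Stat2, so the order of Eif2ak2 and Ifnar2 turned. Listed probe sets just inside the 5-fold limit were those of Tom1, Ralgds and Tbl1xr1 (5.01-fold, 5.01-fold and 5.02-fold), and the 3 nearest outside it lay between 4.98-fold and 5-fold. The median log2 difference was 3.15 over the 4 members, 3.22 over the 626 listed and 0.31 over all probe sets tested.

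**Figure D3:**
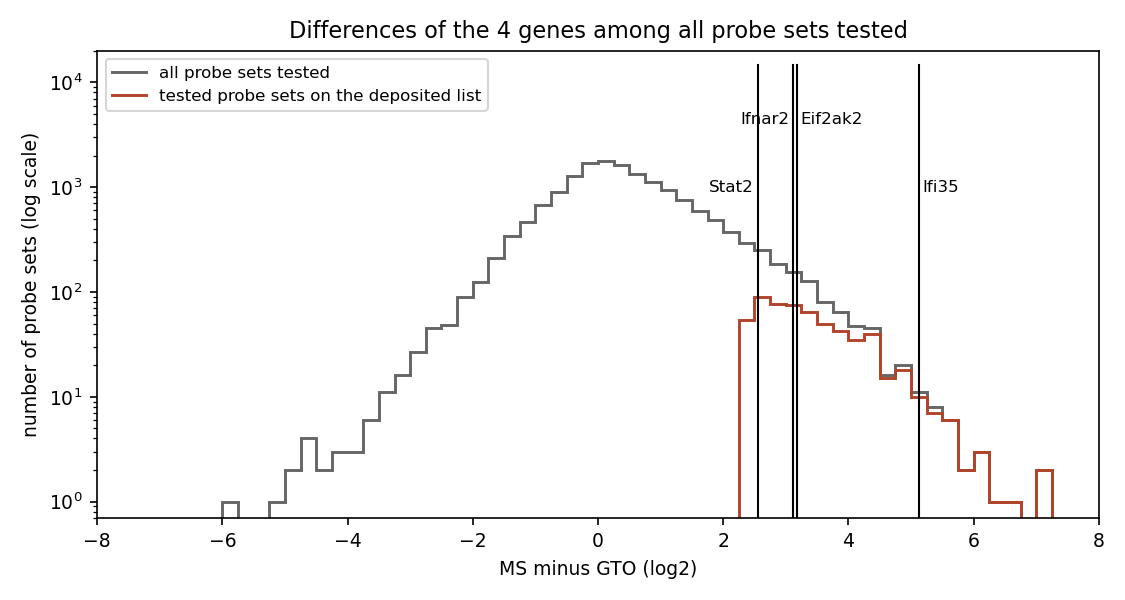
Number of probe sets (log scale) by their MS minus GTO difference (log2), for all 16256 tested (grey) and the 590 of them on the deposited list (red). Vertical lines mark the 4 genes, with Stat2 at 2.55, Ifnar2 at 3.12, Eif2ak2 at 3.18 and Ifi35 at 5.12.

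The 4 genes did not follow a single profile over the MS arrays. Ifnar2 and Ifi35 were highest on MS array 3, by 0.63 and 0.81 over the mean of the other MS arrays. Eif2ak2 and Stat2 were highest on MS array 1, by 1.99 and 0.61 over the mean of the others, and Eif2ak2 was lowest on MS array 3, with a deviation of -1.53. On the list as a whole MS array 1 was the highest MS array for 283 of 626 probe sets (45.2%) and MS array 3 for 140 (22.4%), and the median deviation of MS array 3 was -0.58 on the log2 scale. Among the GTO arrays, only array 1 of Ifnar2 can be set apart from the others, since all other GTO values of the members were low. Its excess of 1.54 on GTO array 1 lay between the median of the list, 0.44, and its upper quartile, 1.74.

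The profiles were also compared after each probe set's own mean over the 6 arrays was subtracted, with the root mean square of the log2 deviations over these arrays as the measure of likeness. Between members this distance was smallest for Stat2 and Eif2ak2, at 0.69, and largest for Stat2 and Ifi35, at 1.32. The other listed probe sets with 1 symbol, 587 in number, were then ranked by their distance to each member. Nearest to Ifnar2 were Ralgapa1 (0.33), a subunit of a Ral GTPase-activating complex, Ptpn2 (0.34), a tyrosine phosphatase, and Atxn3 (0.36), a deubiquitinase. Nearest to Stat2 were Castor2 (0.17), the small heat shock protein gene Hspb1 (0.25) and BC030500 (0.27). Nearest to Eif2ak2 were Wasf3 (0.23), an actin regulator, the orphan receptor gene Gpr12 (0.26) and the p38 kinase gene Mapk11 (0.26). Nearest to Ifi35 were Speg (0.43), Gpr165 (0.44) and Manba (0.46), a lysosomal mannosidase. All of these were selected in the same way, and the size of the group difference weighs heavily in the measure.

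The rest of the pathway was taken from lists of 115 genes, of which 111 are not members. By role, the deposited list held 0 of 9 interferon ligands, 1 of 6 receptors (Ifnar2), 1 of 6 signal transducers (Stat2) and 0 of 8 interferon regulatory factors. It held 0 of 15 sensors and adaptors of interferon induction and 2 of 41 interferon-stimulated genes (Ifi35 and Eif2ak2). It also held 2 of 12 negative regulators (Ptpn2 and Ptpn11) and 2 of 19 genes of the eIF2 alpha kinase pathway (Eif2ak2 and Ppp1r15b). Familiar interferon targets such as Isg15, Ifit1, Mx1 and Oas2 were not on it. Absence from a list of probe sets higher in MS says nothing of their levels, which could not be looked up without the array annotation.

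Ptpn2, which dephosphorylates JAK and STAT proteins, had 2 probe sets on the list. One, 1438562_a_at, read 7.34, 7.67 and 7.87 in MS and 5.51, 3.19 and 3.69 in GTO. The other, 1417140_a_at, read 6.38, 8.25 and 4.83 in MS and 2.83, 2.85 and 2.86 in GTO. The probe sets agree in having no overlap between groups, but their MS spread differed, with an SD of 0.27 for the one and 1.71 for the other.

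Ptpn11, the tyrosine phosphatase SHP2, measured 7.32 ± 0.73 in MS and 4.18 ± 0.64 in GTO (log2 values, SD, n = 3). Ppp1r15b, a subunit that directs protein phosphatase 1 to eIF2 alpha and so opposes kinases such as Eif2ak2, read 10.35, 9.99 and 8.68 in MS and 7.71, 3.72 and 3.41 in GTO. Its GTO array 1 stood 4.15 above the mean of the other GTO arrays, and its difference of 4.73 was 1.96 against GTO array 1 alone. The same deviation of GTO array 1 was 2.06 for the first Ptpn2 probe set and 1.11 for Ptpn11, and against GTO array 1 alone these probe sets differed by 2.12 and 2.40. All of these probe sets were selected on the same arrays as higher in MS, and their direction is not independent evidence.

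**Figure D4:**
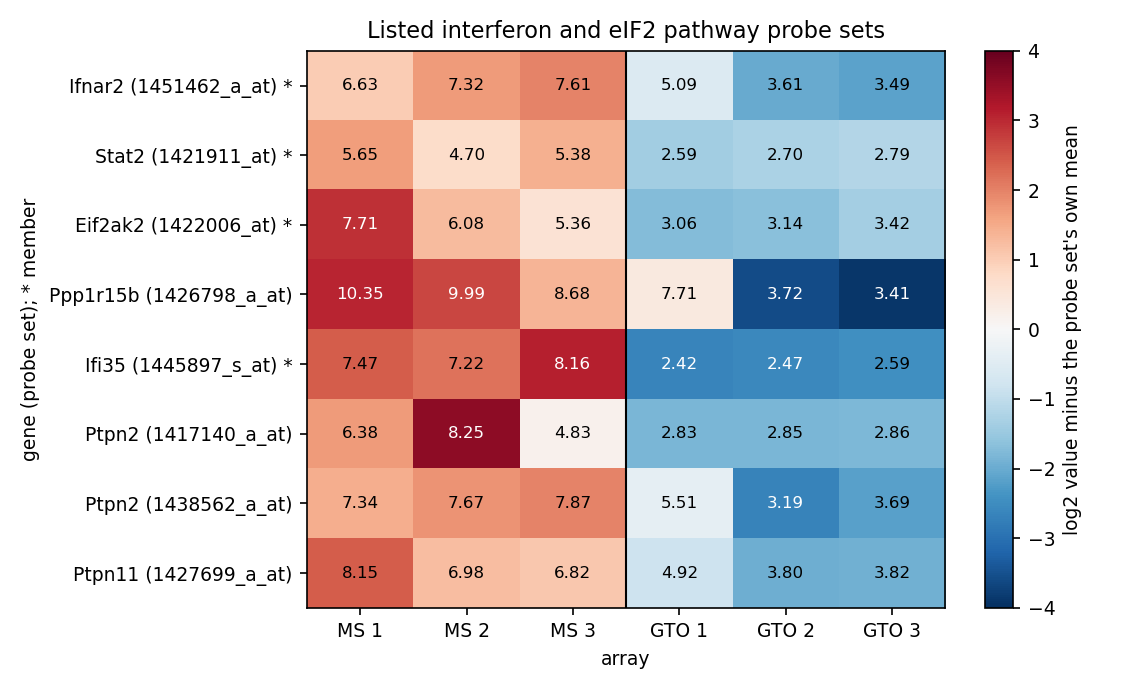
Log2 values of the 8 listed probe sets of interferon and eIF2 pathway genes, with arrays as columns (MS left of GTO) and probe sets as rows, where an asterisk marks the 4 members. Colour gives the deviation from the probe set's own mean, and the printed number is the log2 value. GTO array 1 is above the other GTO arrays for Ifnar2, Ppp1r15b, 1 probe set of Ptpn2 and Ptpn11.

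Array measures differed between the groups in both directions. The upper quartile over all probe sets but controls was 6.86, 6.86 and 6.78 in MS and 6.67, 6.20 and 5.55 in GTO (exact permutation p = 0.1, two-sided, the smallest that 3 against 3 arrays allow). The mean of the hybridization controls was 15.14, 14.86 and 14.96 in MS and 15.17, 15.57 and 15.53 in GTO, so it was higher on every GTO array (exact permutation p = 0.1). The median of the spike-in controls was 2.31, 2.32 and 2.29 in MS and 2.33, 2.38 and 2.47 in GTO (exact permutation p = 0.1). Their part in the members' values was not tested. The number of neurons per sample also followed the groups and cannot be told apart from neuron class. In pooled samples, fewer cells of a type and less RNA per cell cannot be told apart either. When the arrays were given the same distribution by quantile normalization, the members' differences were 2.69 for Ifnar2, 2.17 for Stat2, 2.81 for Eif2ak2 and 4.93 for Ifi35, and Stat2 was then under 5-fold. Against GTO array 1 alone, whose upper quartile was nearest to the MS arrays, they were 2.10, 2.65, 3.32 and 5.19, so Ifnar2 was under 5-fold. The other 3 genes were low on every GTO array, so for them the choice of the GTO array could not lower the difference by much.

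**Figure D5:**
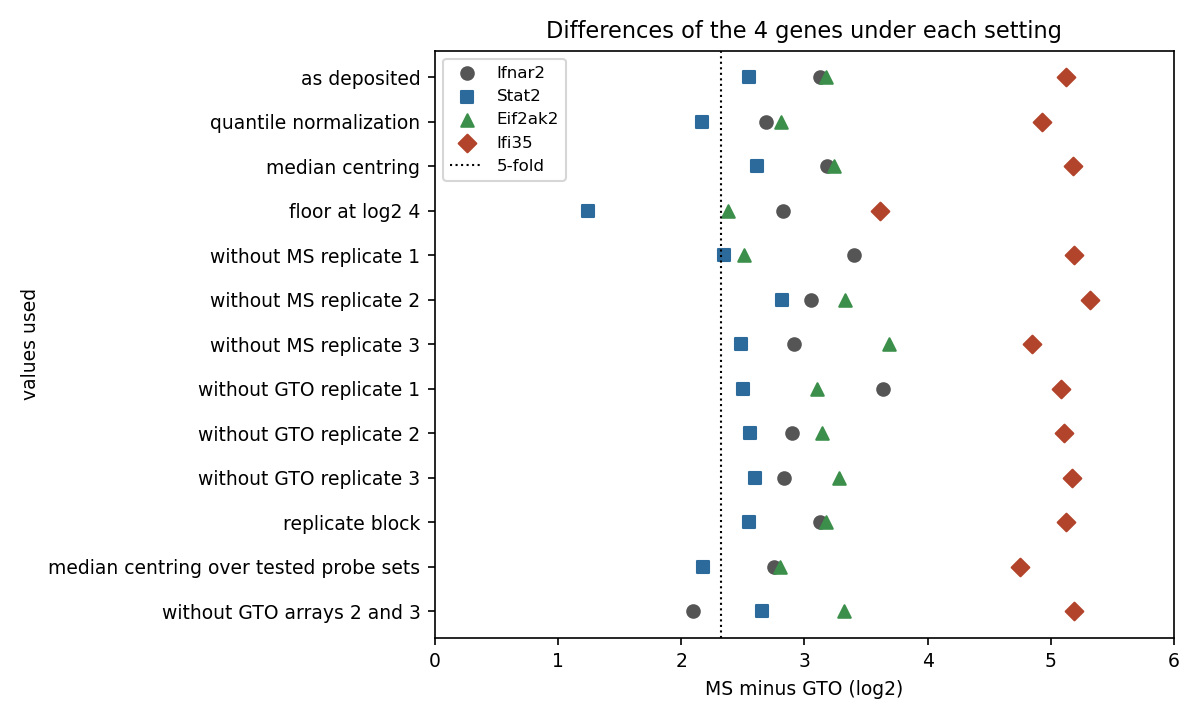
MS minus GTO difference (log2) of the 4 genes with the values as deposited and under each alternative (rows). Symbols are genes and the dotted line is 5-fold. Ifi35 lies to the right of the other genes in every row, and Stat2 or Ifnar2 crosses the 5-fold line in 4 of the rows.

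Markers of other cells could be followed only as far as the list names them. None of 12 macrophage and microglia markers, 9 lymphocyte markers, 6 endothelial markers or 6 satellite glia markers stood on it, and their levels could not be looked up. Of 10 Schwann cell markers the list held Mbp, a myelin protein, at 6.40 ± 0.68 in MS and 2.82 ± 0.44 in GTO, and of 8 fibroblast markers it held the matrix protein gene Sparc, at 8.56 ± 1.16 in MS and 3.61 ± 0.55 in GTO (log2 values, SD, n = 3). Their part in the values of the interferon genes was not tested. Of 8 proprioceptor markers, 2 were on the list. Whrn read 3.15, 5.11 and 6.61 in MS and 2.31, 2.35 and 2.28 in GTO, so it was low on 1 MS array and failed the filter on low values. Cdh13 measured 8.92 ± 1.31 in MS and 5.16 ± 1.18 in GTO (log2 values, SD, n = 3). These markers do not check the Egr3-driven label that separates the groups. Egr3, also among the 8, was not on the list, and its level could not be looked up. Whether the sorted neurons transcribe Egr3 themselves was not examined, so its absence says nothing of the label. Of 8 sensory neuron markers, 0 stood on the list. Pvalb, Runx3 and Etv1, which define proprioceptors in both groups, could not be checked by name.

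In the RefSeq annotation the 4 genes lie on chromosomes 16, 10, 17 and 11 (Ifnar2, Stat2, Eif2ak2 and Ifi35), each on a different one. Ifnar2 is followed by Il10rb, which encodes a receptor chain of the same family, and Ifi35 lies between Rpl27 and Vat1 with no gene overlapping it. The span of Stat2 overlaps Apof, and those of Ifnar2 and Eif2ak2 overlap predicted genes. Whether the probes lie in these overlaps was not examined.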

How the data were processed

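Per the submitters' processing notes, GCRMA and Partek were used, with no version given. The authors deposited log2 values for 45101 probe sets on 6 arrays, and a list of 626 probe sets, each with its p-value and its linear fold ratio of MS over GTO, which the file headers describe as selected at 5-fold and a p-value below 0.08. No array annotation or genome build is given in the sources used here. The number of arrays limits the precision, and p-values rest on the spread between sorted pools.

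Only the deposited list names genes; 591 of its probe sets have 1 symbol, and 584 matched RefSeq (GRCm38.p6) by Entrez identifier. Differences of mean log2 values gave the deposited folds to within a relative deviation of 2.1e-05. After 64 control probe sets were left out, the 16256 with log2 4 or more on at least 3 arrays were fitted with limma 3.58.1 in R 4.3.3 (lmFit, eBayes, two-sided, no covariate), with Benjamini-Hochberg adjustment over all of them. The fit was tested on simulated data. Bounds set the MS mean against log2 4 where all GTO arrays were below it. The rule of the list used an ordinary linear model of the log2 values. Alternatives were quantile normalization, median centring, a floor at log2 4, leaving out each array, a replicate block and, for limma, other filters, an intensity trend and array weights. Array measures used exact permutation tests (4 measures, adjusted p = 0.1 for each).

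The members and gene lists were chosen with earlier results of these data known. Named genes were the members, other genes of the lists on the deposited list, the 3 nearest genes to each member and the probe sets next to the 5-fold limit. Some results that this rule took are not reported here. Promoters came from RefSeq.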

Additional observations from a re-analysis of the deposited data

How the results depend on the processing

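Of 48 recomputed differences of the 4 genes, 42 moved by less than the spread between replicates, 6 moved further and none changed sign. The 42 include those of the replicate block, which cannot change a difference when every replicate number stands in both groups. The groups of every member stayed apart under each setting. Leaving out arrays or adding the block cannot make separated groups overlap, and this contrast chose the genes, so nothing is read from that separation. The median difference of 3.15 was 2.60 with values under log2 4 set to 4, since low values then shrink to the floor, where Stat2 read 1.24, Eif2ak2 2.38 and Ifi35 3.61. Leaving out 1 array at a time gave medians of 2.96 to 3.37 and 4 of 4 members by the rule of the list. Stat2 missed the rule under quantile normalization, the floor and centring on the median of the tested probe sets (2.18). Without GTO arrays 2 and 3, a choice made after seeing the data, as was that centring, 2 of 4 members met it, with Ifnar2 at 2.10 and Eif2ak2 missing it by p-value only, the spread then coming from MS arrays alone.

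Over all probe sets the rule gave 400 under quantile normalization and 376 without GTO arrays 2 and 3 (519 higher in GTO), against 626. Leaving out 1 array gave 438 to 936. The limma count of 3 became 0 with the floor, the intensity trend, that centring, without GTO arrays 2 and 3 and without any 1 array (796 to 1786 at an unadjusted p under 0.05 and 2-fold). It became 12 with no filter, 11 with the filter at log2 6 and 11 with array weights. The causes were not tested.

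With a replicate block, limma called 0 probe sets (1401 at an unadjusted p under 0.05 and 2-fold), and the rule of the list gave 471 with 4 of 4 members. Same-numbered samples correlated in their deviations by -0.06, 0.10 and 0.11. Samples numbered 2 and 3 correlated best with their own number, and those numbered 1 did not. With 3 arrays per group these correlations cannot decide whether same-numbered samples shared a batch. The samples were treated as unpaired in the main fit.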
